A study of Oryza sativa with 13 samples.

Results

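In developing rice seed, 987 stretches of the genome carried a methylation peak in every embryo and every endosperm library, but with more methylated DNA in the embryo. They were chosen on these measured values. Overlapping or touching peaks of the 7 libraries of the cultivar Zhonghua11 (ZH-11, japonica) were merged into 70419 regions, of which 18550 held a peak of all 7 libraries and 16990 of those were under 4000 bp. The level of a region in a library was the number of sequenced tags inside that library's peaks, per 1000000 filtered tags of the library (RPM). A region was kept when its lowest embryo RPM exceeded its highest endosperm RPM and its mean log2 RPM was at least 1 higher in embryo, which means a 2-fold difference. The 987 regions so chosen are called embryo-high regions here. They made up 5.81% of the shared regions under 4000 bp, and the mirrored rule chose 1116 endosperm-high regions (6.57%).

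The libraries came from methylated DNA immunoprecipitation sequencing (MeDIP-seq), in which an antibody against 5-methylcytosine captures fragmented DNA. ZH-11 plants were grown in a phytotron with 12 h of light at 28℃ and 12 h of dark at 22℃, and embryo and endosperm were dissected by hand and kept in ethanol on ice. The embryo libraries were of 3, 6 and 9 days after pollination (DAP) and the endosperm libraries of 2, 3, 6 and 9 DAP, 1 library for each tissue and stage. The series has 13 samples, and the 6 of the cultivar 93-11 (indica) were not analysed here. Peak lists hold no expression of marker genes against which a tissue label could be checked.

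In plants, cytosines are methylated in CG, CHG and CHH contexts, where H is any base but G, and the mark is densest on transposons and other repeats, where small RNAs help to place it. The endosperm arises from a second fertilisation, that of the central cell of the female gametophyte, and nourishes the embryo. In Arabidopsis, the DNA glycosylase DEMETER removes methylcytosine in the central cell before fertilisation, and in rice the related ROS1a has a like role, so that the maternal genome of the endosperm starts with less methylation at many sites, short transposons near genes among them.

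Depth ranged from 8062289 to 8423857 filtered tags in embryo and from 6833917 to 7465986 in endosperm. The shallowest embryo library had more tags than the deepest endosperm library, and depth and tissue therefore cannot be told apart. Depth was also higher at each later stage within either tissue, so depth and age cannot be told apart either. Stages stood in for replicates, so an SD below is the spread between stages of a tissue. The smallest peak in any library held 23 to 26 tags, equal to 3.09 to 3.37 RPM. A region with less endosperm signal than that would have no endosperm peak and could not be among the shared regions. RPM is a level of captured DNA, and in bulk tissue fewer methylated cells and less methylation per cell cannot be told apart.

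The embryo-high regions were well enriched in embryo, and their endosperm levels lay nearer the peak caller's floor of 3.09 to 3.37 RPM. Their median level was 18.2, 19.1 and 19.8 RPM in embryo at 3, 6 and 9 DAP. The endosperm libraries had 7.02 RPM at 2 DAP, and 7.70, 7.39 and 6.96 RPM at the 3 stages that followed. The 3 embryo medians thus averaged 19.0 ± 0.796 RPM (SD, n = 3) and the 4 endosperm medians 7.27 ± 0.345 RPM (SD, n = 4). Behind these levels stood a median of 147 to 167 tags per region in embryo and 48 to 56 in endosperm. Single regions ranged from 7.07 to 71.9 RPM over the embryo libraries and from 3.22 to 27.5 RPM over the endosperm libraries. Over all shared regions the medians of the tissues were closer, at 12.9 to 13.4 RPM in embryo and slightly higher, at 13.8 to 14.8 RPM, in endosperm. The embryo-high regions therefore stood above the typical shared region in embryo and below it in endosperm.

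**Figure D1:**
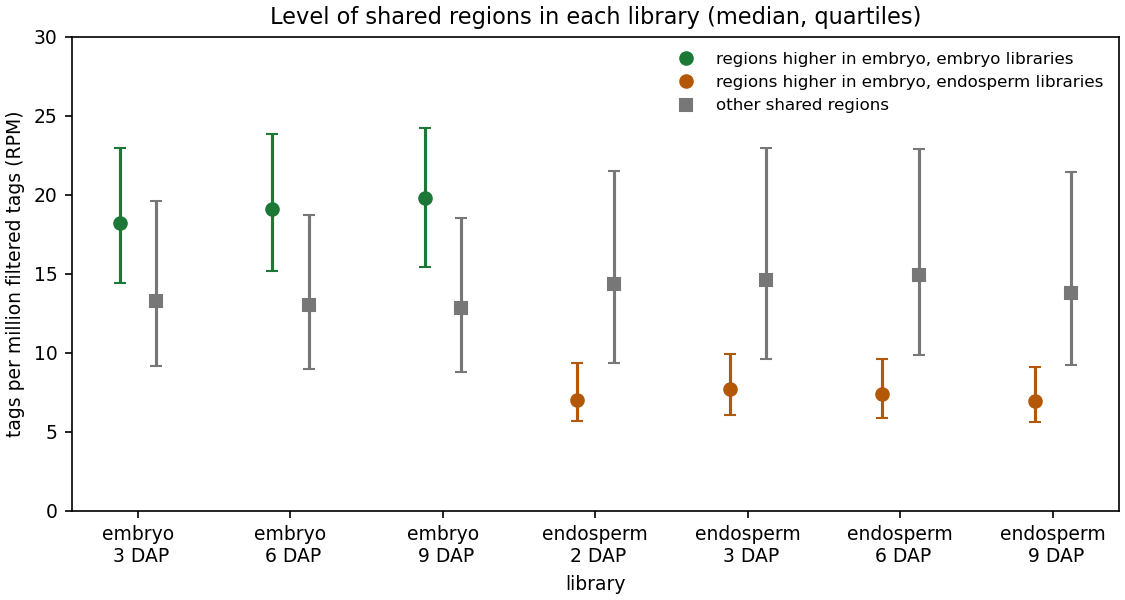
Level of shared regions in each library, as tags per 1000000 filtered tags (vertical axis), with the median as a point and the quartiles as bars over the 987 embryo-high regions (coloured circles) and the 14887 shared regions of neither class (grey squares). The coloured medians sit between 18.2 and 19.8 RPM in the embryo libraries and between 6.96 and 7.70 RPM in the endosperm libraries; the rule chose the regions on these values.

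Most of the 987 differences were close to the minimum the rule set. The median mean log2 difference was 1.26, a 2.40-fold excess of embryo, with quartiles of 1.12 and 1.47, and the median over all shared regions was -0.23. In 762 regions the difference was from 1 to 1.5, in 190 from 1.5 to 2, and in 35 it was 2 or more. Compared stage by stage, the median log2 difference was 1.17, 1.29 and 1.39 at the 3 shared stages in order of age. That of all shared regions was -0.22, -0.28 and -0.19. In the endosperm-high regions it was -1.03, -1.29 and -1.38, so the difference was larger at later stages in both classes. Embryo was at least 2-fold above endosperm of the same age in 686 embryo-high regions (69.5%) at 3 DAP. The counts were 797 (80.7%) at 6 DAP and 858 (86.9%) at 9 DAP. Over all shared regions these shares were 5.515%, 6.45% and 8.66%. At each of the 3 stages, 508 shared regions had a 2-fold excess of embryo, of which 497 were embryo-high.

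Which tissue had the larger class depended on how the libraries were scaled. Under the main scaling 987 regions were embryo-high and 1116 endosperm-high. With each library centred on its median over shared regions the counts were 1290 and 717, with TMM factors they were 1519 and 547, and scaled to each library's tags inside peaks they were 788 and 1545. All 987 regions were chosen again under centring and under TMM, and 788 of them when scaled to the tags in peaks. These scalings moved the median of all shared regions between -0.33 and -0.03 on the log2 scale. A factor per library shifts all regions alike, so the median of the 987 regions lay 1.495 above that median under each scaling by construction.

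The region with the largest difference was Chr2:1586722-1589872, of 3151 bp. Its level was 37.1, 38.1 and 38.2 RPM in embryo at 3, 6 and 9 DAP, and 6.59, 5.09, 5.07 and 5.36 RPM in endosperm at 2, 3, 6 and 9 DAP. The embryo libraries were nearly equal and lay far above the endosperm libraries, of which 2 DAP was the highest, a 6.88-fold mean difference (log2 difference 2.78). The tags behind these levels were 299, 314 and 322 in embryo and 45, 37, 37 and 40 in endosperm. Peaks covered 2736 to 3011 bp of the region in embryo and 546 to 930 bp in endosperm. Its lowest embryo level was 5.63 times its highest endosperm level, the largest such ratio among the 987.

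Chr2:25517122-25520763 came next, with a log2 difference of 2.59. It had 42.9, 36.7 and 33.5 RPM in embryo at 3, 6 and 9 DAP and 7.61, 7.29, 6.03 and 4.55 RPM in endosperm at 2, 3, 6 and 9 DAP. In both tissues the level was lower at each later stage. Chr5:22857445-22859885, with a difference of 2.52, had 34.5, 40.1 and 39.8 RPM in embryo and 6.29, 8.67, 7.39 and 4.82 RPM in endosperm. Its embryo libraries were lowest at the earliest stage and its endosperm libraries highest at 3 DAP. Chr5:21878334-21879811 was the steadiest of the leading regions, with 24.8, 24.3 and 24.2 RPM in embryo and 4.68, 3.99, 5.20 and 4.15 RPM in endosperm. Its lowest embryo level was 4.65 times its highest endosperm level.

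The embryo-high region with the highest mean embryo RPM was Chr3:10594165-10598025, which also had the next largest difference after Chr5:22857445-22859885 (2.48). Single shared regions of neither class reached up to 83.85, 70.34 and 69.92 RPM in embryo at 3, 6 and 9 DAP. The level of Chr3:10594165-10598025 was 68.5, 67.2 and 71.9 RPM in embryo and 16.4, 11.1, 11.2 and 11.7 RPM in endosperm. Its 2 DAP endosperm library was above the other endosperm libraries. The next embryo-high regions by embryo level were Chr1:35075128-35078186, at 51.2 ± 6.24 RPM (SD, n = 3) against 22.1 ± 2.10 in endosperm (SD, n = 4), and Chr6:24902700-24905642, at 50.7 ± 1.07 against 12.3 ± 1.78. Chr7:26760662-26763472 followed with 50.05 ± 1.17 RPM in embryo, while its endosperm libraries had 6.44 RPM at 2 DAP and 13.8, 15.1 and 16.5 RPM at 3, 6 and 9 DAP. The fifth was Chr1:31631324-31634172, whose endosperm libraries had 6.73 and 6.56 RPM at 2 and 9 DAP but 12.2 and 12.9 RPM at 3 and 6 DAP. The remaining leading regions by difference were Chr7:2748800-2751366, ChrSy:154389-156492, Chr5:27390561-27394446 and Chr10:18498915-18500645, with log2 differences of 2.35, 2.31, 2.23 and 2.23. ChrSy is 1 of the sequences that the files list beside the 12 chromosomes.

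**Figure D2:**
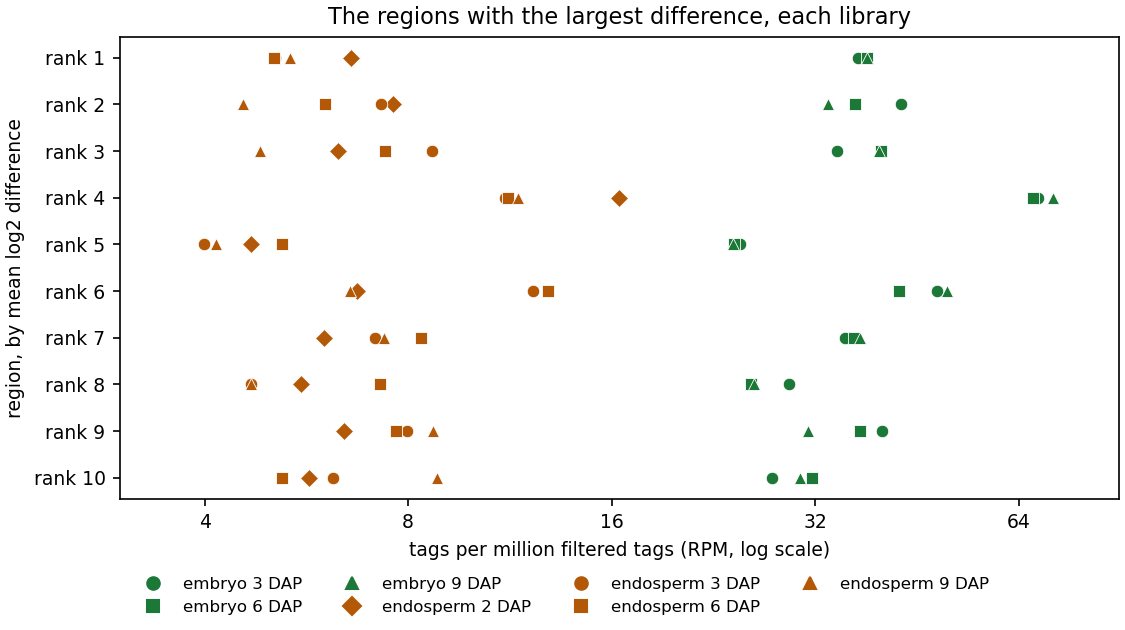
Level in each of the 7 libraries (horizontal axis, tags per 1000000 filtered tags, log scale) of the 10 embryo-high regions with the largest mean log2 difference, ranked from 2.78 at the top to 2.23; green symbols are embryo and orange symbols endosperm, with the symbol giving the stage. The separation was part of the rule; the rank 4 region is the one at 67.2 to 71.9 RPM in embryo.

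Regions at the edge of the rule differed little across it. Just inside the minimum were Chr4:18229231-18231200, Chr2:1722849-1723823 and Chr3:32015468-32016468, each with a mean log2 difference of 1.001. Just outside were Chr4:23567503-23568354 and Chr12:318570-320401, both at 0.9997, and Chr6:3336202-3337132 at 0.9992. The narrowest gap between the tissues was in Chr4:29202592-29204577, where the lowest embryo library had 17.36 RPM and endosperm at 3 DAP had 17.34 RPM. The other endosperm libraries of that region had 7.75, 6.98 and 7.37 RPM. In Chr12:683199-685021 the lowest embryo and highest endosperm levels were 8.38 and 8.19 RPM, and in Chr3:28885935-28889017 they were 12.8 and 12.6 RPM. Without the fold minimum, 3014 shared regions (17.7%) had every embryo library above every endosperm library, and 2027 of these had a log2 difference under 1. A difference of 1 or more was reached by 991 shared regions, 4 of which had overlapping tissues. Named after their values were seen, these were Chr8:21546328-21548634, Chr8:22651272-22655021, Chr5:3823455-3825838 and Chr1:28533539-28535295.

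Embryo-high regions had both wider and denser peaks in embryo. Embryo peaks covered a median of 91.5% ± 1.60 (SD, n = 3) of the region and endosperm peaks 59.9% ± 0.468 (SD, n = 4), or 1344 ± 35.1 bp against 843 ± 4.57 bp. In the shared regions of neither class the coverage was 79.9% in embryo and 81.9% in endosperm. Inside its peaks, embryo had 14.0 ± 0.193 RPM per covered kb and endosperm 8.50 ± 0.328, compared with 10.3 and 11.3 in the regions of neither class. Split on the log2 scale, covered length made up a median of 0.58 and tag density a median of 0.72 of the difference. Covered length held 47.5% of the summed difference, and 49.6%, 48.1% and 46.3% at 3, 6 and 9 DAP. Both components were above 0 in 961 of the 987 regions, covered length was the larger in 423, covered length alone reached 2-fold in 181 and density alone in 175. These measures come from the same contrast as the rule and are given as a description.

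In most embryo-high regions the endosperm peak lay inside a longer embryo peak, with summits about as far apart as in other shared regions. The summits, the positions of most tags, lay a median of 54, 56 and 83 bp apart at 3, 6 and 9 DAP, compared with 44, 52 and 79 bp in the regions of neither class. They were within 200 bp of each other in 74.3%, 72.2% and 67.5% of the embryo-high regions, near the 77.9%, 73.7% and 67.1% of all shared regions. The endosperm summit fell inside an embryo peak in 94.5%, 94.9% and 94.8% of them, against 95.3%, 94.3% and 92.2% of all shared regions. The embryo summit fell inside an endosperm peak in 86.5%, 84.9% and 83.1%, against 95.1%, 94.5% and 93.8%. At 3 DAP the endosperm peak lay wholly within the embryo peak in 649 embryo-high regions (65.7%), against 24.99% of the regions of neither class. The shares at 6 and 9 DAP were 66.8% and 66.7%. In the endosperm-high regions the order was reversed, with the embryo peak inside the endosperm peak in 59.7%, 65.05% and 70.4%. The rule counts tags inside peaks, so nesting and peak length are not independent of the choice. They are given as a description.

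The embryo peak reached further on at least 1 side in most embryo-high regions. Among the 823 embryo-high regions with a single peak in each tissue at 3 DAP, the embryo peak reached over 100 bp further on 1 side in 446 (54.2%), on both sides in 209 (25.4%) and on neither in 168 (20.4%). Over all shared regions with single peaks these shares were 30.4%, 4.70% and 64.9%, so that 1 side was more frequent than both there too. At 9 DAP these counts were 472, 240 and 134 of 846 regions. The embryo peak was longer by a median of 316 bp at 3 DAP, 347 bp at 6 DAP and 378 bp at 9 DAP. In the regions of neither class the median was -2, -15 and -43 bp, and in the endosperm-high regions -492, -676.5 and -918 bp. Longer peaks can hold more of the tags that the rule counts, so these values too are a description. Embryo-high regions held 1.13 peaks each in embryo and 1.046 in endosperm.

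The score the authors deposited for each peak was far higher in embryo, and the deposited fold enrichment was moderately higher. For the peak with the most tags in a region, the median fold over the local background was 9.43, 9.44 and 8.97 in embryo and 6.85, 7.43, 7.39 and 6.56 in endosperm. In the regions of neither class it was 6.84 to 7.26 in embryo and 6.75 to 7.97 in endosperm. The median score was 372, 393 and 399 in embryo but 97.5, 125, 116 and 106 in endosperm, where 50 is the lowest score a listed peak can have. A score under 100 belonged to 1.52% to 1.72% of the regions in embryo and to 52.0%, 33.7%, 37.8% and 45.9% in endosperm at 2, 3, 6 and 9 DAP. Over all shared regions the share was 14.8% to 18.8% in embryo and 12.2% to 22.1% in endosperm, and the median score 182 to 194 and 172 to 215. Fewer than 40 tags stood behind the endosperm level in 254, 141, 173 and 185 embryo-high regions (14.3% to 25.7%), against 3.26% to 5.91% of all shared regions. No embryo level of the embryo-high regions had fewer than 40. In the endosperm-high regions a score under 100 belonged to 34.6% to 47.2% in embryo and to 5.645% to 12.2% in endosperm. Score and fold were computed by the caller on the same peaks that the rule used, so they are given as a description.

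The excess of embryo peaks went beyond the edges of the embryo-high regions. Within 10 kb on either side, with the region itself left out, peaks covered 12.9% ± 0.594 of the bases in embryo (SD, n = 3) and 7.91% ± 0.312 in endosperm (SD, n = 4). The ratio of embryo to endosperm coverage was 1.62 to 1.65 at the 3 stages sampled in both tissues. Around the regions of neither class it was 1.14 to 1.17, with 14.0% and 12.0%, and around the endosperm-high regions 0.934 to 0.983. Flanking coverage was not part of the rule, but the embryo lists held more peaks in general, 51509 to 55242 against 32986 to 36871, and the part of this in the flanking ratio was not tested. At the centre of the embryo-high regions 96.8% were covered in embryo and 81.4% in endosperm, by the peaks that the rule used. At 0.95 kb to the right of the centre the shares were 23.9% and 8.35%. The upper quartile of region length was 1946 bp, so that point still lay inside the longest regions. In the regions of neither class the shares at the centre were 92.4% and 95.3%.

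**Figure D3:**
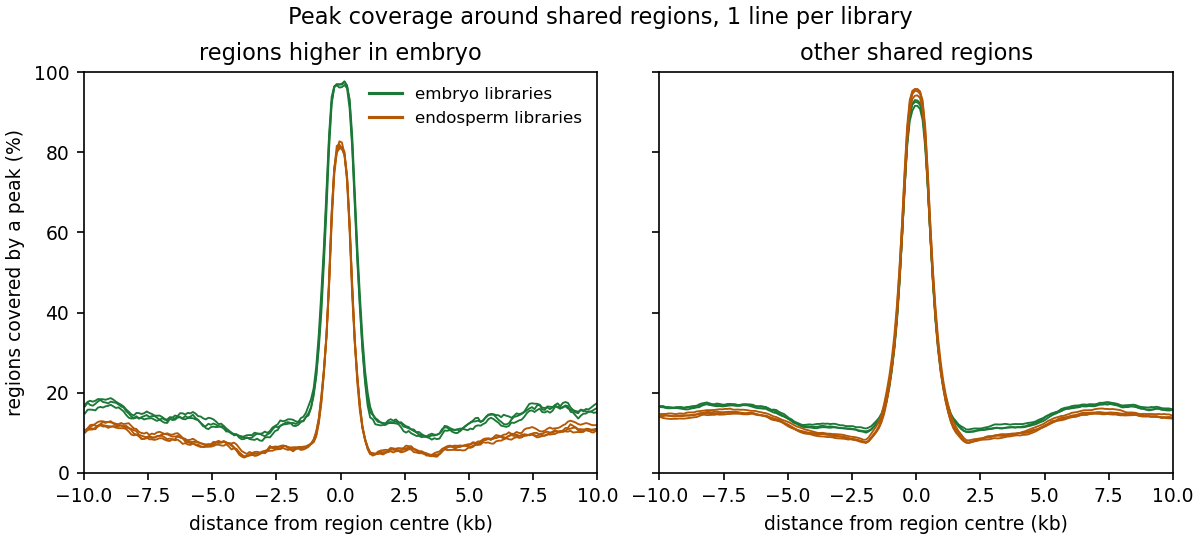
Share of regions covered by a peak (vertical axis, %) against the distance from the region centre (horizontal axis, kb, in 100 bp steps), with 1 line for each of the 3 embryo (green) and 4 endosperm (orange) libraries; the left panel shows the embryo-high regions and the right panel the shared regions of neither class. In the left panel the embryo lines lie above the endosperm lines at the centre (96.8% against 81.4% on average) and on the flanks; in the right panel the centre order is the other way, 92.4% against 95.3%.

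The regions next to embryo-high regions also differed. Of their 1974 nearest neighbours, 563 (28.5%) were embryo-only, with a peak in every embryo library and in no endosperm library, against 16.9% of the neighbours of regions of neither class and 12.3% of those of endosperm-high regions. Another 44 neighbours (2.23%) were themselves embryo-high, against 1.10% beside the regions of neither class, and 9 (0.456%) were endosperm-high, against 1.58%. The gap to a neighbour had a median of 3140 bp, compared with 2772 bp. Embryo-only regions under 4000 bp differed in level and size, with a median of 7.19, 7.65 and 8.07 RPM in embryo at 3, 6 and 9 DAP and a median length of 850 bp. Embryo-high regions had a median length of 1519 bp.

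The same difference was looked for in libraries that took no part in the choice. When both libraries of 3 DAP were left out, the rule on the other 5 chose 1213 regions, and 1115 of them had a peak of each tissue at 3 DAP. Embryo was higher in 1104 of these (99.01%) and at least 2-fold higher in 635 (57.0%), with a median log2 difference of 1.08. A further 96 regions had a 3 DAP peak in embryo alone and 2 in endosperm alone. Over all regions shared by the choosing libraries, embryo was higher at 3 DAP in 35.3% and 2-fold or more in 5.585%.

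At the later stages the left-out differences were larger. With 6 DAP left out, 1129 regions were chosen and embryo was higher in 1003 of the 1007 with both peaks (99.6%), 2-fold or more in 716 (71.1%), and the median log2 difference was 1.23. With 9 DAP left out, 1081 were chosen and embryo was higher in 894 of 897 (99.7%), 2-fold or more in 708 (78.9%), and the median was 1.34. Embryo was higher in 34.4% and 39.5% of all regions shared by the choosing libraries, and 2-fold or more in 6.43% and 8.60%. Regions with an embryo peak alone numbered 118 at 6 DAP and 182 at 9 DAP. Endosperm at 2 DAP, left out alone, had a peak in 978 of 1254 chosen regions, and its level was under the lowest embryo level in 952 of them (97.3%), against 30.2% of all regions shared by the choosing libraries. The embryo levels in this last comparison had entered the choice. There is 1 library for each tissue and stage, so no test of these shares was made.

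**Figure D4:**
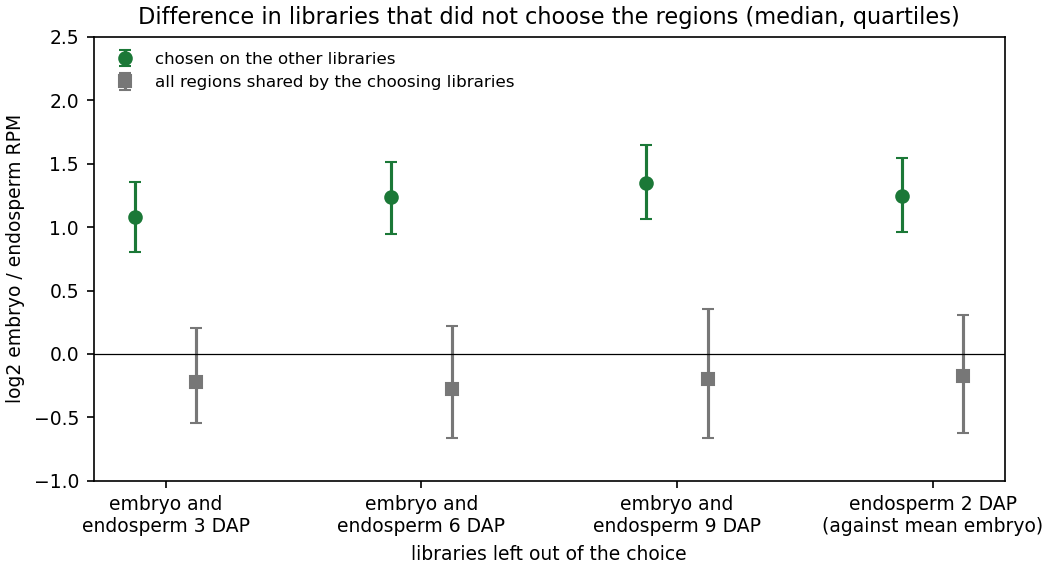
Log2 ratio of embryo to endosperm RPM (vertical axis) in libraries left out when the regions were chosen (horizontal axis), with the median as a point and the quartiles as bars, for the regions chosen on the other libraries (green circles) and for all regions shared by the choosing libraries (grey squares). The medians of the chosen regions were 1.08, 1.23 and 1.34 at 3, 6 and 9 DAP and 1.247 against endosperm at 2 DAP, where the embryo levels had entered the choice; those of all regions were between -0.28 and -0.18.

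Within embryo, the level of the embryo-high regions tended to be higher at later stages. Depth and the number of listed peaks rose in the same order, with 51509, 53391 and 55242 peaks at 3, 6 and 9 DAP. The part of depth in this was not tested. The embryo library of 9 DAP was the highest of the 3 in 444 embryo-high regions (45.0%) and that of 3 DAP the lowest in 466 (47.2%), while over all shared regions the shares were 28.0% and 27.1%. The level was higher at each later stage in 261 embryo-high regions (26.4%) and lower at each in 104 (10.5%), against 14.4% and 22.0% of all shared regions. Across the 4 endosperm stages it was higher at each later stage in 34 regions (3.44%) and lower at each in 65 (6.59%), against 3.20% and 4.23% of all shared regions. The rule, which allows no overlap of the tissues, can limit the spread within a tissue. The median SD of log2 RPM over stages was 0.12 in embryo and 0.25 in endosperm. Over all shared regions it was 0.18 and 0.24, so the spread was smaller in embryo only.

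No embryo-high region passed the test of a change with age. edgeR's quasi-likelihood test of a slope per day common to both tissues, fitted over all 16990 shared regions, called 0 of them at an adjusted p under 0.05 (0%). At an unadjusted p under 0.05 it gave 33 embryo-high regions (3.34%), against 4.05% of all shared regions. The rule that allows no overlap of the tissues used the same levels, so such shares of embryo-high regions are not independent of the choice. DESeq2 called 1 shared region, which was not embryo-high. At the unadjusted limit it gave 19 embryo-high regions (1.925%), against 2.607% of all shared regions. The difference of the slopes between tissues was called by edgeR in 0 regions (0%). At the unadjusted limit edgeR gave 27 embryo-high regions (2.74%), against 4.07% of all shared regions. For this difference DESeq2 called none and gave 9 embryo-high regions (0.912%) at the unadjusted limit, against 2.148% of all shared regions. The smallest adjusted p of an embryo-high region was 0.994 for the common slope and 1 for the difference. These tests ask for a linear trend in days, and their error is the departure of the 7 libraries from a straight line. The fitted embryo slope was above 0 in 648 embryo-high regions (65.7%), with a median of 0.013 log2 units per day, and the endosperm slope in 422 (42.8%), with a median of -0.0090. Over all shared regions these shares were 40.8% and 46.1%.

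In the 3 regions with the smallest p for age, endosperm at 9 DAP stood above the earlier endosperm libraries. Chr3:16708150-16710287 had 15.9, 21.9 and 26.2 RPM in embryo and 5.56, 7.15, 7.53 and 14.5 RPM in endosperm, and both tissues were higher at each later stage. Its slope was 0.15 ± 0.035 (SE) log2 units per day, with an unadjusted p of 0.00115 and an adjusted p of 0.994 in edgeR's quasi-likelihood test. Chr3:31891925-31894729 and Chr9:20940655-20942475 followed, with 15.3 and 11.5 RPM in endosperm at 9 DAP against at most 7.81 and 4.79 RPM in the earlier endosperm libraries. The smallest p for a difference of slopes was in Chr1:297175-300140, with 12.8, 28.1 and 33.6 RPM in embryo and 10.5, 10.6, 8.35 and 6.70 RPM in endosperm. There the tissues were closest at 3 DAP and farthest apart at 9 DAP, and the slopes differed by 0.33 ± 0.079 (SE) log2 units per day, with an unadjusted p of 0.00206 and an adjusted p of 1 in edgeR's quasi-likelihood test. Chr3:28885935-28889017 went the other way, from 26.5 to 20.5 and 12.8 RPM in embryo while endosperm at 9 DAP had 12.6 RPM. In Chr9:2081200-2083122 embryo had 15.3, 17.6 and 21.4 RPM, and endosperm 13.6, 9.77, 7.81 and 5.89 RPM.

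Embryo-high regions were rarely long and lay more often towards the chromosome ends. They ranged from 540 to 3958 bp, with a median of 1519 bp and quartiles of 1164 and 1946 bp, and covered 1.61 Mb. The regions of neither class had a median length of 1650 bp and the endosperm-high regions one of 2494 bp. Of shared regions from 1000 to 1500 bp, 7.11% were embryo-high, and of those from 3000 to 4000 bp, 1.78%. Over the same range the endosperm-high share went from 2.01% to 20.2%. By distance from the nearest chromosome end, the embryo-high share was 7.63% below 2 Mb, 8.09% from 2 to 4 Mb, 8.62% from 4 to 6 Mb and 6.73% from 6 to 8 Mb. It was 3.87% from 8 to 10 Mb, 5.04% from 10 to 12 Mb and 3.78% from 12 Mb on. The share within 6 Mb of an end was 8.14% and that from 8 Mb on 4.12%, a ratio of 1.97 that lay between 1.58 and 3.43 under the other settings. The end of a chromosome was set by the outermost listed peak. The part of peak calling in this gradient was not tested.

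**Figure D5:**
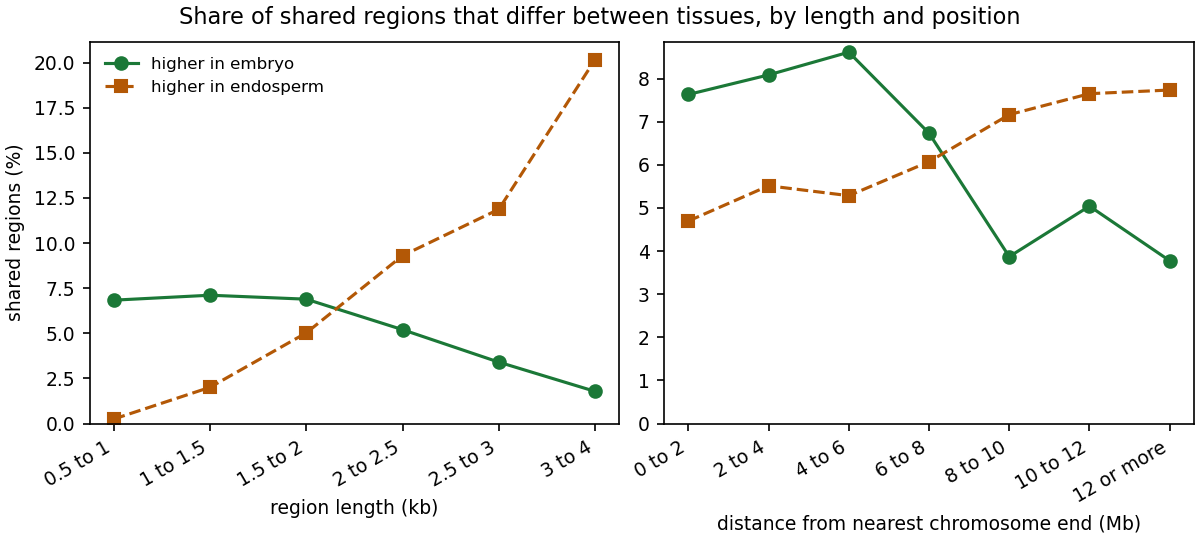
Percent of the shared regions under 4000 bp (vertical axes) that were embryo-high (green circles) or endosperm-high (orange squares), by region length in kb (left) and by distance from the nearest chromosome end in Mb (right). The embryo-high share is lowest, at 1.78%, in the longest regions and highest, at 8.62%, from 4 to 6 Mb from an end, while the endosperm-high share reaches 20.2% in the longest regions.

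By chromosome, the embryo-high share was highest on chromosome 3 (140 of 1559 shared regions, 8.98%), followed by chromosome 1 (156, 7.84%) and chromosome 2 (111, 7.23%). It was lowest on chromosome 11, with 41 of 1243 (3.30%). The endosperm-high share was lowest on chromosome 3 (4.55%) and highest on chromosome 12 (8.73%). They were spread thinly, with 304 of 379 bins of 1 Mb holding at least 1 and a median of 2 per bin. The bin Chr6:5000001-6000000 held most, 12 of 54 shared regions, beside 1 endosperm-high and 68 embryo-only regions. Chr4:33000001-34000000 held 10 of 35, with 72 embryo-only regions, and Chr7:23000001-24000000 held 10 of 49, with 49 embryo-only regions.

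Close groups of embryo-high regions were few. The nearest other embryo-high region was a median of 99960 bp away, 131 (13.3%) had one within 20 kb and 855 had none. Among the endosperm-high regions the median was 82200 bp, and 17.7% had another of their class within 20 kb. With neighbours at most 20 kb apart, 61 pairs and 3 runs of 3 were formed. The run at Chr2:25517122-25550486 began with the second-ranked region above, went on with a region of 14.7 to 16.9 RPM in embryo and 4.39 to 7.12 RPM in endosperm, and ended with one of 15.8 to 18.0 RPM in embryo and 6.29 to 7.26 RPM in endosperm. The run at Chr6:5777339-5798088 lay in the bin with most embryo-high regions and had log2 differences of 1.053 to 1.331. In the run at Chr10:18117857-18127986, of 10.1 kb, all 3 merged regions in the span were embryo-high. Its last region had 8.81, 15.1 and 18.5 RPM in embryo and 4.15 to 5.61 RPM in endosperm, so that embryo was higher at each later stage.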

How the data were processed

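The authors deposited 1 peak list per library. The tools named are Bowtie2 and MACS, according to the submitters' processing notes, which give no roles. Each list was made without a control by MACS 1.4.2, per the file headers, at p-values up to 1e-05. The headers also give 360 Mb as effective genome size, 200 bp as fragment size, at most 1 tag at a position, and background windows of 10 kb. The genome build is not given in the sources used here, so regions are named by the files' coordinates, without genes or sequence. The deposited tag count of a peak is a whole number of reads. The score is -10 times the base-10 logarithm of the caller's p-value, and the fold is the ratio of tags to the local background, both per the file headers. Peak length and summit, in bp, are the authors' values too.

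Peaks were merged, tag counts summed per region and library, and divided by the header's filtered tags (RPM). Tags outside peaks are not counted, so levels near the caller's limit depend on where a peak was cut. Tag density is RPM per covered kb. Age was tested on the summed tag counts of 16990 shared regions with edgeR 4.0.16 in R 4.3.3 (quasi-likelihood, tissue and days as terms, filtered tags as offset, Benjamini-Hochberg adjustment over all regions, threshold 0.05), with DESeq2 1.42.0 as an alternative, after a test on simulated data. The rest was computed in Python 3.11.15. The SE of a slope is its size divided by the square root of its F value. The labels do not say whether libraries came from separate plants, so p-values measure only the spread between these libraries, which may be technical.

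Regions named are the 10 with the largest difference, the 5 with the highest embryo RPM, the 5 with the largest ratio of lowest embryo to highest endosperm RPM, the 3 with the smallest p for age and for the difference of slopes, 3 on either side of the minimum difference, the 3 narrowest gaps, the runs of 3 and the 3 fullest bins, 24 embryo-high regions in all beside the runs. The regions, rules and lists were chosen with earlier results of these data known. Alternatives were other scalings, tag density, score and tag minimums, other fold minimums, merging rules, and each library left out.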

Additional observations from a re-analysis of the deposited data

Results flagged for a closer look

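The 4 endosperm values were examined for 36 measures, namely the level of each named region and the summary measures of all embryo-high regions. In 4 of them, all single regions, a library stood far from the rest by Dixon's criterion at 95%. The criterion flags about 1 in 20 groups by chance when groups are not picked for their values. The regions here were named for their values, such as a narrow gap or an age slope, so that rate does not apply to them. Endosperm at 2 DAP had 16.4 RPM in Chr3:10594165-10598025, against 11.1 to 11.7 RPM in the other endosperm libraries. It also stood apart in Chr6:3336202-3337132, which lay just under the minimum difference, with 6.44 RPM. Endosperm at 9 DAP had 11.5 RPM in Chr9:20940655-20942475, against 3.85 to 4.79 RPM at the earlier stages. Endosperm at 3 DAP had 17.3 RPM in Chr4:29202592-29204577, against 6.98 to 7.75 RPM, and this library alone set the narrow gap between the tissues there.

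The median level of the embryo-high regions was 1.59 RPM higher at 9 DAP than at 3 DAP in embryo, and in endosperm the change was -0.739 RPM. The difference between these changes was not tested on the medians, and the test of each region's slopes called none.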

How the results depend on the processing

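The number of embryo-high regions was 1519 with TMM factors, 186 by tag density inside peaks, 560 with at least 40 tags in every library, 225 with a log2 difference of at least 1.5, 3014 with no minimum, 262 with peaks scoring 100 or more, and 508 when a 2-fold excess was asked at each of the 3 shared stages. The 40-tag minimum was chosen after seeing the data. Without any 1 library it was 944 to 1254. For the 987 regions of the main rule, kept fixed, the median log2 difference was 1.39 when libraries were centred and 1.46 with TMM. For the same regions it was 0.72 by tag density and 0.58 by covered length alone. In left-out libraries, the share of embryo excess fell to 57.0%, 71.1%, 78.9% and 71.6% when 2-fold was asked, for 3, 6 and 9 DAP and endosperm at 2 DAP. The ratio of flanking coverage was 1.63 over tissue means, 1.87 within 5 kb, 1.52 within 20 kb and 1.60 to 1.67 without any 1 library. The cause of these changes was not tested. Every age alternative called 0 embryo-high regions. The planned minimum of 20 tags removed no region. The labels give no replicate numbers; the tissues were paired by stage in the 2-fold setting above.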
